A study of Homo sapiens with 6 samples.

Results

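HMOX1, HMOX2, BLVRA, BLVRB, FTH1, FTL, TFRC, SLC40A1, SLC11A2 and NCOA4 take heme apart, store the iron it releases and carry iron into and out of the cell. These 10 genes were chosen by symbol, for their roles, from the 53826 entries of each expression table. Earlier results of these data were known at that choice and at the choice of the gene lists below. The shares of all entries printed beside their counts are therefore descriptions and not a test. None of the 10 symbols occurred more than once, so each gene is 1 entry, and all 10 were followed in all 6 libraries.

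The cells were PK-1 and Panc-1, both of which are long-established lines grown from human pancreatic ductal adenocarcinoma (PDAC). For RNA-seq, each line had a control culture, a culture exposed to RARγi-1 (LY2955303) for 24 h and a culture exposed to RARγi-2 (MM11253) for 24 h. These antagonists of retinoic acid receptor gamma differ in structure. The design gave 6 conditions with 1 library each. Doses for these cultures, the vehicle of the controls and the time for which the controls were kept are not stated in the sources used here. A treatment entry on both RARγi-2 libraries reads RARγi-1, and those libraries were placed by their titles.

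Heme oxygenase opens the heme ring and releases iron, carbon monoxide and biliverdin, and biliverdin reductase A then makes bilirubin. The iron set free is held in ferritin, a shell of heavy and light chains, or leaves the cell through ferroportin, while the transferrin receptor and the divalent metal transporter bring iron in. When iron is scarce, iron regulatory proteins bind hairpins called iron-responsive elements. A hairpin in the 5′ UTR then blocks translation, as for ferritin and ferroportin, whereas hairpins in the 3′ UTR protect the transferrin receptor mRNA from decay. RNA levels of the ferritin genes and of HMOX1 are also under transcription factors, among them NRF2, which activates them, and BACH1, a heme-binding repressor.

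The hairpins are printed here because 4 of the 10 genes held this feature. Those genes are the ones named above as carriers of such hairpins, so their presence was known beforehand and is not a finding of this search. Transcripts of GENCODE 29 on GRCh38 were searched, on the transcript strand alone, for an unpaired C, 5 bases, the 6-base loop CAGTGN and 5 bases able to pair with the first 5, with G-T pairs allowed. FTH1, FTL and SLC40A1 held 1 such element each, in the 5′ UTR (exon 1), and TFRC held 4, all in the 3′ UTR (exon 19). The 30 bases around each element follow from 5′ to 3′, with the loop in capitals.
FTH1: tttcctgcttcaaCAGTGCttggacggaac
FTL: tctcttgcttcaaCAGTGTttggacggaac
SLC40A1: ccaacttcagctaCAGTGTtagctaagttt
TFRC element 1: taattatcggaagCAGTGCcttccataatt
TFRC element 2: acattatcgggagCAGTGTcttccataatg
TFRC element 3: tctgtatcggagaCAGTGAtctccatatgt
TFRC element 4: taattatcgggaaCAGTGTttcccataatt

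The FTH1 element lies at chr11:61967574-61967603 on the minus strand and that of FTL at chr19:48965334-48965363 on the plus strand. That of SLC40A1 lies at chr2:189580661-189580690 on the minus strand. The TFRC elements, in the order printed, lie on the minus strand at chr3:196050979-196051008, chr3:196050575-196050604, chr3:196050510-196050539 and chr3:196050463-196050492. The element was present in 7 of 8 coding transcripts of FTH1, the 1 of FTL, 1 of 5 of SLC40A1 and 3 of 4 of TFRC. The same pattern occurred anywhere in a transcript in 287 of 19669 protein-coding genes (1.46%), in a 5′ UTR in 33 (0.168%) and in a 3′ UTR in 132 (0.671%). These shares tell how common the pattern is and are not a test of the genes above. The pattern allows no bulge within the paired bases, so elements with one there, such as the element known in the SLC11A2 3′ UTR, are outside the search, and the counts hold for this pattern alone. An element with a loop other than CAGTGN would be missed as well, in these genes and in others. A match describes the sequence and shows neither binding nor use of the element in these cells. The expression tables give 1 value per gene, so transcripts with and without the element were not separated.

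RNA levels are TPM values, which are abundances scaled by transcript length and by library total, so that genes can be compared within a library. Everything under 1 TPM had been raised to 1 TPM, called the floor here, and 74.6% to 75.6% of entries lay at it in each library. Changes are differences in log2 of (TPM + 1), treated library minus the control library of its line, a scale that understates changes of low genes, and "rose" and "fell" are used for changes past 2-fold. Levels listed in threes are those of the control, RARγi-1 and RARγi-2, and changes listed in fours are those of PK-1, RARγi-1 first, followed by those of Panc-1 in the same order. With 1 library per condition there is no replicate check and no p-value, and a difference may be between cultures rather than between treatments. The nearest measure of variation, the spread of the difference between the 2 treated libraries of a line over entries of at least 5 TPM, was 0.41 in PK-1 and 0.32 in Panc-1 on the log2 scale of a change. That spread contains any real difference between the inhibitors and nothing that both treated libraries share, and because both are set against the same control, their values are given side by side and not as repeats of each other.

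The cultures carried duct epithelial markers, 7 of 8 being above the floor in PK-1 cells and 6 of 8 in Panc-1. CDH1 was at the floor in every Panc-1 library. The summed level of these markers was 22538 TPM in the PK-1 control and 13531 and 14146 TPM with RARγi-1 and RARγi-2, and in Panc-1 it was 8481 TPM in the control against 1829 and 1502 TPM. These sums were mostly keratin RNA, and CDH1 in PK-1 went the other way, at 170.1, 270.2 and 384.8 TPM. Red cells and macrophages are the cells best known for heme and iron handling, and of their markers HBB, ALAS2, PTPRC, CD163 and CSF1R were at the floor in all 6 libraries. Of 6 erythroid markers, 0, 1 and 2 were above the floor in the PK-1 libraries, with sums of 0, 2.93 and 7.50 TPM, and 2 in each Panc-1 library, with sums of 4.36, 4.22 and 4.23 TPM. MARCO, a macrophage receptor, was at 2.29 TPM in PK-1 with RARγi-2, and the macrophage list summed to between 19.8 and 276 TPM, nearly all of it CD68, a lysosomal protein also made outside macrophages. CD68 was at 19.8 TPM in the PK-1 control, 95.0 and 62.6 TPM in its treated libraries, and between 238 and 276 TPM in Panc-1. Of the other lists, endothelial markers were at the floor throughout, 1 of 6 fibroblast markers was above it (COL1A1, 3.21, 11.5 and 13.4 TPM in PK-1 and 52.4, 4.65 and 2.10 TPM in Panc-1, control first), and 1 of 6 acinar and hepatocyte markers was above it in PK-1 (PRSS1, 1.06, 11.1 and 21.2 TPM). The part that these shifts have in the changes described here was not tested, and in bulk RNA a change in the number of cells of a kind and a change in RNA per cell cannot be told apart.

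The inducible heme oxygenase and both ferritin chains rose with both inhibitors in both lines, and were 3 of the 10 genes past 2-fold upward in all 4 comparisons. Over all entries above the floor in both lines, 336 of 12799 (2.63%) did so. Biliverdin reductase B was the fourth gene to rise, in 3 of 4 comparisons. TFRC was the only gene of the 10 to fall past 2-fold, in PK-1 with both inhibitors. HMOX2, BLVRA, SLC11A2 and NCOA4 stayed within 2-fold in every comparison, as did SLC40A1 in PK-1. SLC40A1 was at the floor in Panc-1.

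**Figure D1:**
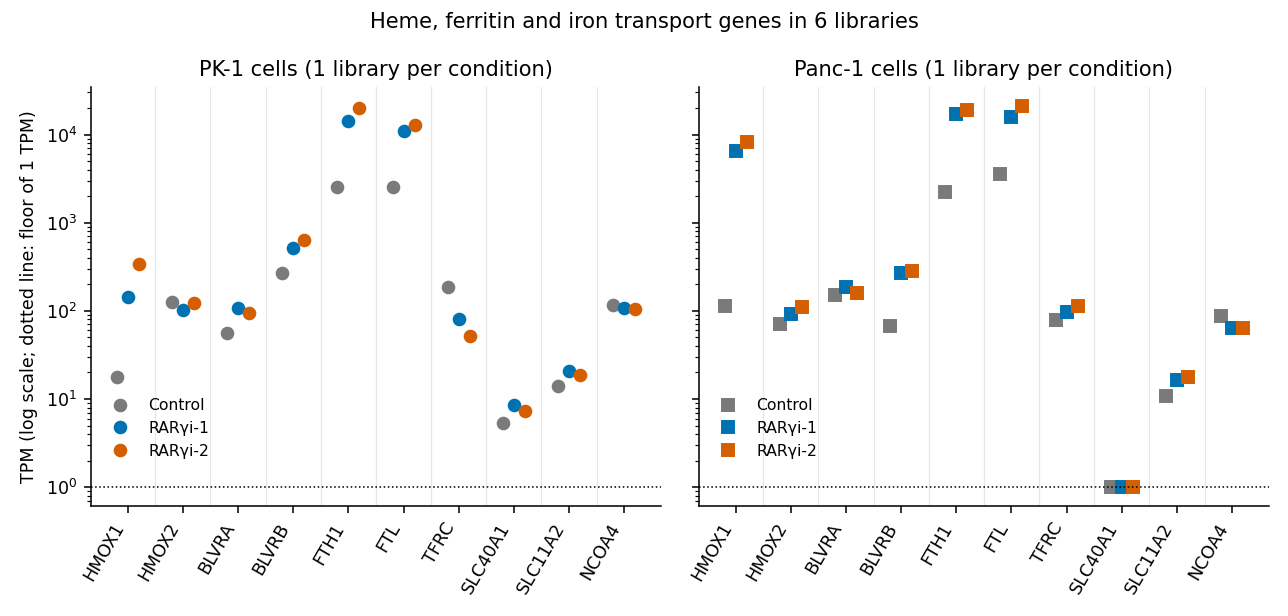
TPM of the 10 genes on a log axis, control in gray, RARγi-1 in blue and RARγi-2 in orange, with PK-1 on the left and Panc-1 on the right, 1 point per library and no error bar because each condition is 1 library. FTH1 and FTL are at 10971 TPM or more in all 4 treated libraries, HMOX1 reaches 8126 TPM in Panc-1 and 339 TPM in PK-1, and SLC40A1 sits on the dotted floor of 1 TPM in Panc-1.

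Heme oxygenase 1 (HMOX1, chr22:35380361-35394214, plus strand) is the enzyme form that cells make in response to heme and to oxidative or electrophilic stress. In PK-1, HMOX1 was at 17.8 TPM in the control, 142.1 TPM in the RARγi-1 library and 339 TPM in the RARγi-2 library. In Panc-1 it was at 113.0 TPM in the control, and the corresponding treated levels were 6518 and 8126 TPM. The highest PK-1 library thus lay far below the lowest treated Panc-1 library, and the Panc-1 control was 6.35 times the PK-1 control. In Panc-1 the TPM ratios to control were 57.7 and 71.9, and on the log2 scale these were the largest and the second largest rise among 14184 entries. In PK-1 the ratios were 7.98 and 19.1, and the rises stood at places 37 and 25 of 14269 entries. The RNA moved from place 1490 by abundance in the Panc-1 control to places 7 and 5, and from place 6604 to places 1123 and 433 in PK-1.

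Heme oxygenase 2 (HMOX2, chr16:4474690-4510347, plus strand), the constitutive form, was at 127.2, 101.3 and 121.9 TPM in PK-1 (control, RARγi-1, RARγi-2) and at 71.7, 92.2 and 111.5 TPM in Panc-1. Its changes on the log2 scale were -0.33 and -0.06 in PK-1, inside the spread, and 0.36 and 0.63 in Panc-1, beyond it, and none passed 2-fold. The balance of the 2 forms differed widely between libraries. HMOX1 was at 0.140 times HMOX2 in the PK-1 control and at 1.40 and 2.78 times with RARγi-1 and RARγi-2. In Panc-1 it was at 1.58 times HMOX2 in the control and at 70.7 and 72.9 times after treatment, so the inducible form was the more abundant RNA in every Panc-1 library and, in PK-1, in the treated libraries alone. The RNA of both oxygenases together was 145.0 TPM in the PK-1 control, against 243.4 and 461 TPM with the inhibitors, and in Panc-1 it was 184.7 TPM against 6610 and 8237 TPM.

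Of the biliverdin reductases, the A form acts on the product of heme oxygenase, and that step is not assigned to the B form here. Biliverdin reductase A (BLVRA, chr7:43758680-43807342, plus strand), which reduces biliverdin IXα to bilirubin, was at 55.6, 107.6 and 95.5 TPM in PK-1 and at 149.7, 185.9 and 158.7 TPM in Panc-1. Its log2 changes of 0.94 and 0.77 in PK-1 lay beyond the spread and under 2-fold, and those of 0.31 and 0.08 in Panc-1 lay within the spread. Biliverdin reductase B (BLVRB, chr19:40447765-40465840, minus strand), also known as flavin reductase, was at 271.2, 513.7 and 635.9 TPM in PK-1 and at 67.7, 266.0 and 280.6 TPM in Panc-1. It rose 2.34-fold with RARγi-2 in PK-1 cells and 3.93-fold and 4.14-fold in Panc-1, while its TPM ratio with RARγi-1 in PK-1, 1.89, stayed under 2-fold. BLVRB had stood at 0.453 times BLVRA in the Panc-1 control and was at 1.43 and 1.77 times after treatment. In PK-1 it was the more abundant of the pair throughout, at 4.88, 4.78 and 6.66 times BLVRA. The control levels of the pair were ordered in opposite ways, with BLVRB 4.004 times higher in PK-1 and BLVRA 2.69 times higher in Panc-1.

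The ferritin heavy chain (FTH1, chr11:61959718-61967660, minus strand) carries the ferroxidase activity that oxidizes iron on its way into the shell. FTH1 was at 2516, 14200.3 and 20201 TPM in PK-1 and at 2225, 16876 and 18831 TPM in Panc-1. The ferritin light chain (FTL, chr19:48965301-48966878, plus strand), which favors formation of the iron core, was at 2546, 10971 and 12793 TPM in PK-1 and at 3585, 15681 and 20896 TPM in Panc-1. All 4 treated libraries lay above both controls for each chain. The TPM ratio to control was 5.65 and 8.03 in PK-1 cells and 7.59 and 8.46 in Panc-1 for FTH1, and 4.31 and 5.03 in PK-1 cells and 4.37 and 5.83 in Panc-1 for FTL. For FTH1 the corresponding log2 changes were 2.50, 3.00, 2.92 and 3.08, and for FTL they were 2.11, 2.33, 2.13 and 2.54.

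Both chains were abundant in the controls, at places 42 and 40 of the PK-1 control and 53 and 20 of the Panc-1 control (FTH1 and FTL), and they held 2 of the 3 highest places in each treated library. FTH1 was the most abundant RNA in the PK-1 RARγi-2 library. The pair made up 0.507% of all TPM above the floor in the PK-1 control and 2.52% and 3.30% with RARγi-1 and RARγi-2. In Panc-1 the share was 0.582% in the control and 3.26% and 3.98% after treatment. With HMOX1 added, the 3 genes reached 3.91% and 4.79% of the treated Panc-1 libraries, of which HMOX1 alone was 0.653% and 0.814%.

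The ratio of heavy to light chain also moved. FTH1 over FTL was 0.988, 1.29 and 1.58 across the PK-1 libraries, and in Panc-1 it was 0.621, 1.08 and 0.901. The control lines differed more in this ratio than in FTH1 itself, whose PK-1 level was 1.13 times that of Panc-1. The lead of FTL over FTH1 in the Panc-1 control (0.69 on the log2 scale) and of FTH1 over FTL in the PK-1 RARγi-2 library (0.66) exceeded the spread, and in the other 4 libraries the 2 chains lay within it. That spread is of the same gene between libraries, so it is only a yardstick here and does not measure error between genes.

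**Figure D2:**
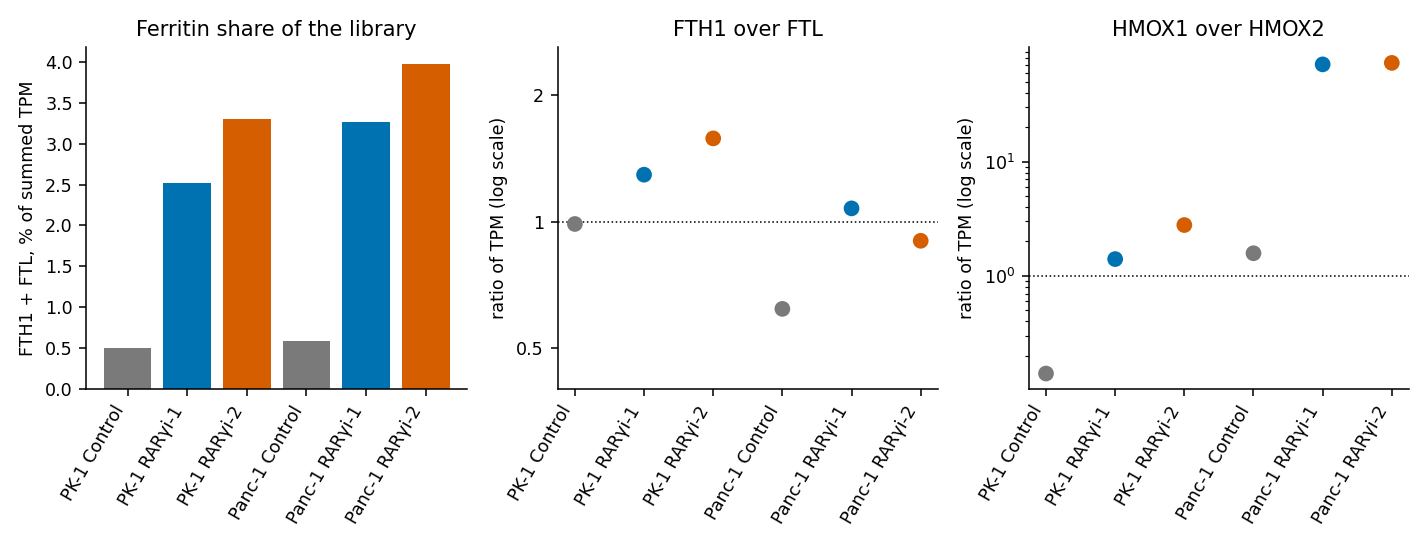
The left panel shows FTH1 plus FTL as a percent of the TPM above the floor in each of the 6 libraries (bars from 0), the middle panel FTH1 over FTL and the right panel HMOX1 over HMOX2, as ratios of TPM on log axes with a dotted line at 1. The ferritin share is 0.507% and 0.582% in the controls and between 2.52% and 3.98% in the treated libraries, and HMOX1 over HMOX2 runs from 0.140 in the PK-1 control to 72.9 in the Panc-1 RARγi-2 library.

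Ferritin genes have many processed copies, and reads can be divided between near-identical sequences. Of 45 ferritin pseudogene entries (26 of FTH1 and 19 of FTL), 44 were at the floor in all 6 libraries. FTH1P3 lay at the floor in each control and at 3.19 and 3.24 TPM in treated PK-1 and 2.52 and 3.54 TPM in treated Panc-1. These levels are small beside those of FTH1, but how the authors assigned reads shared between copies is not given in the sources used here. FTH1 and HMOX2 each overlap a coding gene on the opposite strand. BEST1, over FTH1, lay at the floor in each control and reached at most 3.78 TPM in PK-1 cells and 1.97 TPM in Panc-1, and NMRAL1, over HMOX2, was at 104.1, 71.8 and 65.1 TPM and at 113.8, 123.2 and 106.4 TPM. The library kit keeps strand, but whether the counting used it is not stated.

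NCOA4 (chr10:46005088-46030714, minus strand) is the cargo receptor that delivers ferritin to the lysosome, where its iron is released. It was at 117.6, 107.6 and 104.3 TPM in PK-1 and at 88.3, 63.8 and 64.4 TPM in Panc-1. The log2 changes were -0.13 and -0.17 in PK-1, within the spread, and -0.46 and -0.45 in Panc-1, beyond it and under 2-fold. Ferritin heavy chain RNA relative to that of its receptor therefore went from 21.4 to 131.9 and 193.6 in PK-1 and from 25.2 to 264.7 and 292.4 in Panc-1.

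The transferrin receptor (TFRC, chr3:196027183-196082189, minus strand) takes up transferrin-bound iron, and its RNA carries the 4 hairpins that the search above found. In PK-1, TFRC was at 186.7 TPM in the control, 80.8 TPM in the RARγi-1 library and 52.2 TPM in the RARγi-2 library, so that the control was 2.31 and 3.58 times the treated libraries. In Panc-1 it was at 78.2, 97.8 and 114.8 TPM, with the control the lowest of the 3. The log2 changes were thus -1.20 and -1.82 in PK-1 cells and 0.32 and 0.55 in Panc-1, where the first lay within the spread and the second beyond it. Among 14269 entries the PK-1 changes stood at places 464 and 560 from the bottom. The control of PK-1 had 2.39 times the TFRC of the Panc-1 control, and the treated PK-1 levels of 80.8 and 52.2 TPM stood beside 78.2 TPM in that control. FTH1 over TFRC went from 13.5 to 175.7 and 387 in PK-1 and from 28.4 to 172.5 and 164.1 in Panc-1, where TFRC was not lower after treatment.

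Ferroportin (SLC40A1, chr2:189560579-189583758, minus strand), the iron exporter, was a low RNA in PK-1, at 5.32, 8.50 and 7.36 TPM, whereas each of the 3 Panc-1 libraries had it at the floor. The log2 changes in PK-1 were 0.59, beyond the spread, and 0.40, within it. In Panc-1 no change can be stated at this floor. TFRC exceeded SLC40A1 by 35.1, 9.51 and 7.09 times in PK-1 and by at least 78.2, 97.8 and 114.8 times in Panc-1, where SLC40A1 was set at 1 TPM.

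The divalent metal transporter 1 (SLC11A2, chr12:50979401-51028566, minus strand) moves ferrous iron across the plasma membrane and out of endosomes. It was at 13.97, 20.8 and 18.6 TPM in PK-1 and at 10.7, 16.6 and 17.7 TPM in Panc-1. Each control was the lowest library of its line. The log2 changes were 0.54 and 0.39 in PK-1 cells and 0.59 and 0.68 in Panc-1, of which all but the 0.39 lay beyond the spread and none passed 2-fold.

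**Figure D3:**
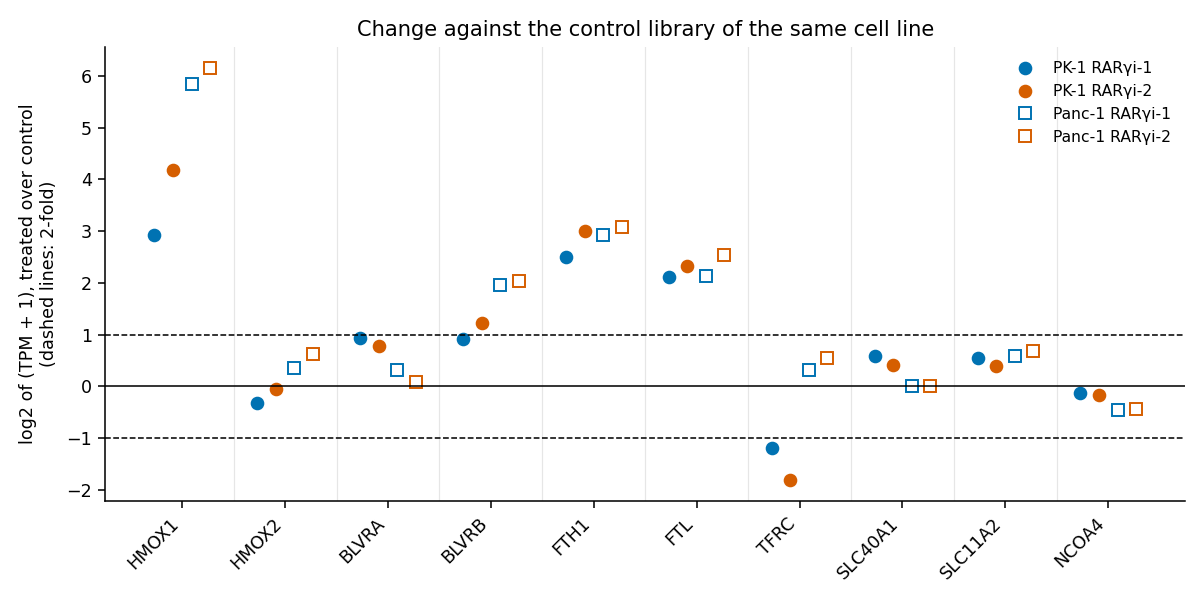
Log2 change of (TPM + 1) against the control of the same line for the 10 genes, filled circles for PK-1 and open squares for Panc-1, RARγi-1 in blue and RARγi-2 in orange, with dashed lines at 2-fold and no error bars because each point rests on 1 treated and 1 control library. HMOX1, FTH1 and FTL lie above 2-fold in all 4 comparisons, TFRC lies below in PK-1 (-1.20 and -1.82) and between the lines in Panc-1 (0.32 and 0.55), and the zeros of SLC40A1 in Panc-1 are floor values.

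Counted by comparison, 3 of the 10 genes rose with RARγi-1 in PK-1 (HMOX1, FTH1 and FTL), against 9.05% of the 14269 entries above the floor in that line. In PK-1 with RARγi-2, 4 of 10 rose, BLVRB being the addition, against 11.9% of entries. In Panc-1 the same 4 genes rose with RARγi-1, against 7.3% of 14184 entries, and with RARγi-2, against 8.34%. Downward, 1 of 10 passed in PK-1 with each inhibitor, TFRC both times, where 4.85% of entries passed with RARγi-1 and 12.3% with RARγi-2. None of the 10 fell past 2-fold in Panc-1, where 5.96% of entries did so with RARγi-1 and 11% with RARγi-2. The median log2 change over the members above the floor was 0.75 and 0.59 in PK-1 (10 genes) and 0.59 and 0.68 in Panc-1 (9 genes). Over all entries above the floor it was 0.13 and 0.01 in PK-1 cells and 0.08 and -0.01 in Panc-1. Rescaling by the median ratio of entries lowered the log2 changes in PK-1 with RARγi-1 by 0.14, a little less for low genes, and moved the other 3 comparisons by less than 0.1. No change of a member above the floor took the other direction or crossed 2-fold under it.

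The doses behind the inhibitors are not stated, so their values stand side by side. In PK-1 the library treated with RARγi-2 stood further from the control than that treated with RARγi-1 by more than the spread for 3 genes: HMOX1 (by 1.25 on the log2 scale), FTH1 (by 0.51) and TFRC (-0.62, further down). In Panc-1 this held for FTL alone (0.41), and the HMOX1 values there were 0.32 apart, within the spread.

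Within a library, the order of levels was much alike at the top and differed below it. FTH1 and FTL led in every library. Next came BLVRB in all 3 PK-1 libraries, BLVRA in the Panc-1 control and HMOX1 in both treated Panc-1 libraries, where it was still below FTL or FTH1 by 1.27 and 1.21 on the log2 scale. In the PK-1 control BLVRB, TFRC and HMOX2 followed each other with gaps beyond the spread, HMOX2 and NCOA4 did not differ beyond it, and HMOX1 lay within the spread of SLC11A2. With RARγi-1, PK-1 had HMOX1, NCOA4, BLVRA, HMOX2 and TFRC in that order, with no gap between neighbours beyond the spread. With RARγi-2, HMOX1 stood clear of the group, HMOX2, NCOA4 and BLVRA were within the spread of their neighbours, and TFRC had dropped below them by 0.87. In the Panc-1 control NCOA4, TFRC, HMOX2 and BLVRB lay close together, and below the ferritin chains only TFRC and HMOX2 did so in the treated libraries. SLC11A2 and then SLC40A1 ended the order in each library. Because the spread is taken for the same gene between libraries, it does not measure error between genes, and these gaps are descriptions alone.

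Beyond the 10 genes, 48 other genes of heme and iron handling were followed in 6 lists, with 39 above the floor in PK-1 cells and 38 in Panc-1. In PK-1 with RARγi-1, 4 rose (10.3%, beside 9.05% of all entries) and 1 fell (2.56%, beside 4.85%). With RARγi-2, 2 rose there (5.13%, beside 11.9%) and 8 fell (20.5%, beside 12.3%). In Panc-1, 4 rose with each inhibitor (10.5%, beside 7.3% and 8.34%), while 1 fell with RARγi-1 (2.63%, beside 5.96%) and 3 with RARγi-2 (7.89%, beside 11%). The median log2 change was -0.08 and -0.37 in PK-1 cells and -0.09 and -0.37 in Panc-1.

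Of 8 genes of heme synthesis, ALAS1, the rate-limiting enzyme outside red cells, rose in 3 of 4 comparisons. It was at 44.1, 107.5 and 115.8 TPM in PK-1 and at 95.4, 254.8 and 139.3 TPM in Panc-1, where the log2 change with RARγi-2 was 0.54. No other gene of this list rose, and in PK-1 with RARγi-2 it had 2 genes that fell, ALAD (-1.12) and CPOX (-1.50). Of 8 genes of heme transport and binding, SLC48A1, which moves heme out of endosomes and lysosomes, rose in Panc-1 (25.7, 70.2 and 61.0 TPM, log2 changes 1.41 and 1.21) and not past 2-fold in PK-1 (0.45 and 0.29). In PK-1 with RARγi-2, the heme exporter gene FLVCR1 (-1.26) and the heme-binding HEBP1 (-1.12) fell.

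Among 10 genes of iron uptake and reduction, 7 were above the floor in each line, and transferrin itself (TF) and STEAP4 were at the floor in all 6 libraries. LCN2, which binds bacterial siderophores, was at 158.4, 802.7 and 4016 TPM in PK-1, and in Panc-1 it was at the floor in the control and at 18.1 and 39.8 TPM after treatment. LCN2 was thus the member of this list with the highest level in PK-1. SLC39A8, a transporter of zinc, manganese and iron, fell in PK-1 (11.8, 4.24 and 3.34 TPM, log2 changes -1.29 and -1.56) and was at the floor in Panc-1. Its relative SLC39A14 was at 39.1, 59.9 and 78.5 TPM in PK-1 and at 37.2, 69.8 and 95.8 TPM in Panc-1, past 2-fold only in Panc-1 with RARγi-2. The ferrireductase gene CYBRD1 fell in PK-1 with RARγi-2 (-2.15) and STEAP3 in Panc-1 with RARγi-2 (-1.13).

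Of 6 genes for iron oxidases and the hepcidin axis, only HFE was above the floor, whereas CP, HEPH, HEPHL1, HAMP and HJV were at it in every library. HFE, whose product binds the transferrin receptor, was at 9.24, 5.07 and 2.81 TPM in PK-1 and at 6.35, 2.25 and 1.56 TPM in Panc-1, and fell in 3 of 4 comparisons. The 6 genes of iron sensing and cytosolic iron chaperones had medians between -0.08 and -0.02. The genes of the iron regulatory proteins, ACO1 and IREB2, stayed within 2-fold, at -0.20 and -0.47 (ACO1) and -0.23 and -0.41 (IREB2) in PK-1 and at -0.17 and -0.49 and 0.04 and -0.04 in Panc-1. FBXL5, which targets the iron regulatory proteins for degradation, rose only in PK-1 with RARγi-1 (1.13), beside 0.16 with RARγi-2 and 0.67 and 0.38 in Panc-1. Of 10 genes of mitochondrial iron and iron-sulfur cluster assembly, 9 were above the floor, and the scaffold gene ISCU rose in Panc-1 (42.9, 104.6 and 106.9 TPM) but not past 2-fold in PK-1 (63.2, 81.4 and 102.4 TPM). SLC25A37, a mitochondrial iron importer, was the only other gene of that list to rise, in PK-1 with RARγi-1 (1.03), whereas LYRM4 fell in PK-1 (-1.21) and NFS1 in Panc-1 (-1.04), both with RARγi-2.

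Of 6 genes for BACH1, NRF2 and their partners, 4 rose in PK-1 with each inhibitor, beside 9.05% and 11.9% of all entries, and 2 in Panc-1 with each inhibitor, beside 7.3% and 8.34%. MAFF and MAFG, small MAF proteins that pair with NRF2 or BACH1 on DNA, rose in all 4 comparisons: MAFF by 2.11, 2.55, 1.15 and 1.21 and MAFG by 1.13, 1.24, 1.08 and 1.18 on the log2 scale. MAFK rose in PK-1 (1.49 and 1.85), with values of -0.37 and 0.58 in Panc-1. BACH1 was at 7.01, 15.3 and 15.3 TPM in PK-1, past 2-fold with both inhibitors, and at 3.52, 4.50 and 5.01 TPM in Panc-1. The RNA of NRF2 itself (NFE2L2) had log2 changes of 0.37, 0.30, 0.50 and 0.82 and that of its inhibitor KEAP1 changes of -0.06, 0.19, -0.31 and 0.18, none past 2-fold.

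As a comparison list, 8 other genes known as NRF2 targets were read alongside. Of these, 6 rose in PK-1 with each inhibitor and 7 in Panc-1, beside the same shares of all entries, and the median log2 changes were 1.54 and 1.85 in PK-1 cells and 1.90 and 2.43 in Panc-1. OSGIN1, an oxidative stress response gene, rose by 2.40, 3.45, 2.86 and 4.49, and SLC7A11, the cystine importer, by 2.52, 2.78, 2.67 and 3.28. SRXN1 (1.85, 2.29, 2.86 and 3.37), which restores oxidized peroxiredoxins, GCLC (1.65, 1.90, 1.98 and 2.73), of glutathione synthesis, and TXNRD1 (1.42, 1.64, 1.82 and 2.12), thioredoxin reductase, rose in every comparison too. NQO1, the quinone reductase, was past 2-fold in Panc-1 (192.9, 472.6 and 548.5 TPM) and not in PK-1 (563.6, 762.4 and 810.4 TPM). The ferritin rises lay within the range of this list, except that of FTH1 in Panc-1 with RARγi-1 (2.92, beside at most 2.86), whereas HMOX1 (2.93, 4.18, 5.84 and 6.16) exceeded all 8 genes in each comparison.

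**Figure D4:**
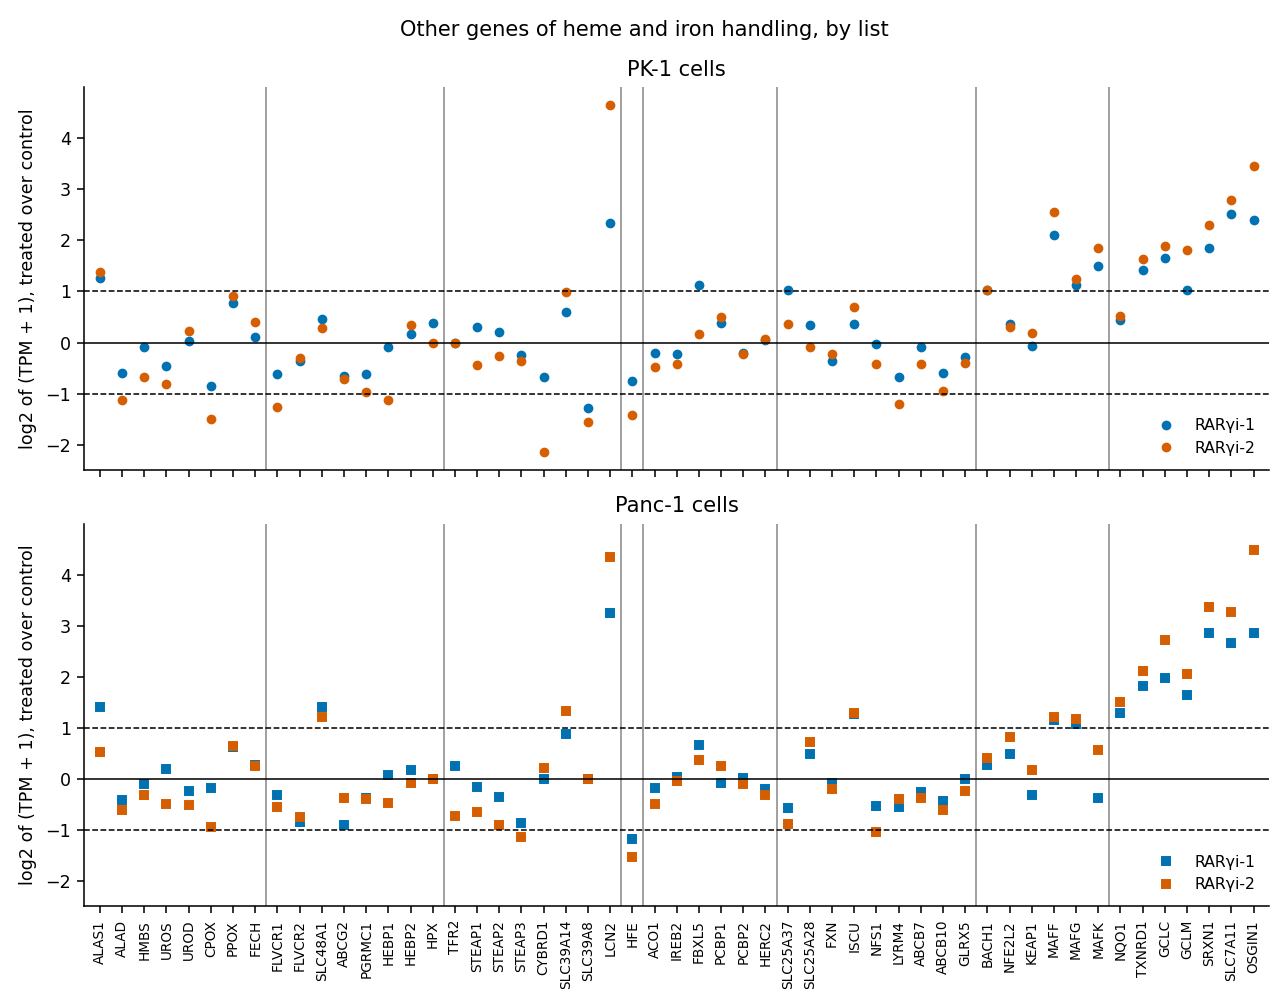
Log2 change of (TPM + 1) against control for the listed genes that were above the floor in at least 1 line (1 NRF2 target is not drawn), PK-1 above and Panc-1 below, RARγi-1 in blue and RARγi-2 in orange, 1 library per condition. Vertical lines part the lists, from left to right heme synthesis, heme transport, iron uptake, hepcidin axis (HFE), iron sensing, mitochondrial iron, BACH1 and NRF2 partners, and NRF2 targets, and dashed lines mark 2-fold. Most genes of the first 6 lists lie between the dashed lines, while all NRF2 targets drawn lie above them in Panc-1, and all but NQO1 do so in PK-1.

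Entries with the most similar pattern were sought by the Euclidean distance over the 4 log2 changes, among the 10628 entries that reached 10 TPM in any library. For HMOX1 the nearest were BEX2 (distance 1.15, with changes of 2.84, 3.34, 5.42 and 5.50), BEX4 (1.44) and the stress-induced transcription factor gene ATF3 (1.57). For FTH1 they were SLFN5 (0.33), SLC7A11 (0.39) and IL20RB (0.41). For TFRC they were DKC1 (0.46), DHODH (0.51) and SFXN2 (0.55), each lower in treated PK-1 and higher in treated Panc-1. For SLC40A1 they were LY6D (0.06), SERPINB5 (0.07) and PRKCD (0.09), distances that rest in part on its floor values in Panc-1, where no change can be stated. The 4 changes share 2 controls, and the distances are a description of these 6 libraries.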

How the data were processed

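RNA-seq libraries of PK-1 and Panc-1 cells (control, RARγi-1 or RARγi-2; 1 library per condition) came from mRNA by a strand-specific kit and were grouped by their titles. The authors deposited log2 TPM values with everything under 1 TPM raised to 1 TPM, a floor read from the values. The submitters' processing notes name the build hg38. Aligner, counter and annotation are not given in the sources used here. TPM keeps no depth, so the depth is unknown and no interval was computed.

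The deposited log2 values were converted to TPM with Python 3.11.15, numpy 2.4.6 and pandas 2.3.3. Changes are log2 of (TPM + 1) against the control of the line, called past 2-fold, over entries that exceeded the floor in 1 or more libraries of a line. The caller was tested on simulated data with less noise per library than the spread seen here and with planted changes well past 2-fold. That test therefore tells nothing about calls near 2-fold in these data. As the spread, the median absolute deviation of the treated libraries' difference was multiplied by 1.4826. Percentages of TPM exclude floor values. Listed genes were named where they passed 2-fold in the same direction with both inhibitors in at least 1 line, at most 5 per list. ALAD, CPOX, FLVCR1, HEBP1, SLC39A14, CYBRD1, STEAP3, FBXL5, SLC25A37, LYRM4 and NFS1 (past 2-fold in 1 comparison), ACO1, IREB2, NFE2L2, KEAP1 and NQO1 were named after their values were seen. The 10 genes and the lists were chosen with earlier results of these data known. Hairpins and positions come from GENCODE 29 (GRCh38). A few marker and list genes are counted in the lists and not reported singly here.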

Additional observations from a re-analysis of the deposited data

Results flagged for a closer look

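TFRC and HMOX2 had changes of opposite sign in PK-1 and Panc-1, whichever inhibitor was used. TFRC had values of -1.20 with RARγi-1 and -1.82 with RARγi-2 on the log2 scale in PK-1, against 0.32 and 0.55 in Panc-1. HMOX2 had values of -0.33 and -0.061 in PK-1, both within the spread of 0.41, against 0.36 and 0.63 in Panc-1. The difference between the lines was not tested, because each condition is 1 library, and in each line both changes are read against the same control.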

How the results depend on the processing

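The changes of the 10 genes were recomputed without a pseudocount, with pseudocounts of 0.1 and 5, after median-ratio rescaling, with repeated symbols summed, and on a total without the MIR6723, MIR4461 and MTRNR2L entries, the last chosen after seeing the data. All 228 values of genes above the floor kept their direction and their side of 2-fold. The other 12, of SLC40A1 at the floor in Panc-1, have no direction and lay between -0.040 and 0.012. No member symbol occurred more than once in the tables, so summing altered none. A pseudocount cannot turn the direction of a change, so direction was open only under the rescaling and the altered total. Of 72 recomputed counts of genes past the threshold, which also cover a filter at 5 TPM and thresholds of 1.5-fold and 3-fold, 70 stayed within 1.5 times the reported count. With a 1.5-fold threshold, 6 genes rose in PK-1 with RARγi-1 instead of 3, and with a 3-fold threshold 0 genes fell there instead of 1, since the TPM ratio of TFRC was 2.31. No paired analysis was possible because each condition is 1 library, and for the same reason no replicate could be left out. Values under 1 TPM are not distinguished, which limits SLC40A1 in Panc-1, and the precision set by sequencing depth is unknown.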
